A study of Mus musculus with 40 samples.

Results

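Interleukin 1 beta (Il1b), the antagonist of its receptor (Il1rn) and the CC chemokine Ccl6 were followed through the bone marrow of 20 mice. They were picked by gene symbol after earlier results on these same mice were known, on the log2 ratios described here, so the differences of these 3 genes between groups are given as a description, with no p-value. They are 3 of 9616 genes that the array's probes name, and 4 of its 13443 probes carry 1 of these symbols. Il1b has 2 probes, 021A14 (called probe 1 here) and 010B04 (probe 2), Il1rn has probe 001N12 and Ccl6 has probe 001G15. The 2 Il1b probes had values in different mice and were kept apart.

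The mice were of the inbred strain DBA/2 and formed 4 groups of 5, namely untreated controls and mice given 83 mg/kg cyclophosphamide into the peritoneum, with marrow collected on day 1, 2 or 5 after the injection. Cyclophosphamide is a drug whose metabolites cross-link DNA. No vehicle injection is named for the controls, and age and sex are not given in the labels. RNA of each mouse (Cy5) was hybridised on 2 arrays against a common pool (Cy3), and both of its values were averaged, which makes n a number of mice. The pool is described as untreated marrow in one label field and as treated in another, which touches the values against the pool but cancels between groups. An array gave values for 4079 to 7977 probes, and the lowest correlation of the 2 arrays of a mouse was 0.683. The values are taken as log2 ratios. If they were natural logarithms, every fold below would be larger.

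Interleukin 1 beta is an inflammatory cytokine that neutrophils, monocytes and macrophages make as an inactive precursor, which caspase-1 cuts within the inflammasome. It signals through the receptor Il1r1 with the accessory chain Il1rap, the adaptor Myd88 and the transcription factor NF-kappaB, and in marrow it drives the output of granulocytes. The Il1rn product occupies the same receptor without recruiting the accessory chain. Ccl6 is a rodent chemokine of myeloid cells.

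The RefSeq promoter windows of the 3 genes (GRCm38.p6, 250 bases before to 50 after a start site) are shown because the 3 genes were all lower on day 5. Capitals mark matches on either strand to 5 motifs. NF-kappaB was searched as GGGNNNNNCC and C/EBP as TTNNGNAA. The letters TGANTCA stood for AP-1. The letters GAGGAA stood for PU.1. For the TATA box they were TATAAA. Il1rn has 3 start sites in the table, of which starts 1 and 3 are shown, since the windows of starts 2 and 3 overlap.
Il1b, chr2:129371090-129371389, minus strand: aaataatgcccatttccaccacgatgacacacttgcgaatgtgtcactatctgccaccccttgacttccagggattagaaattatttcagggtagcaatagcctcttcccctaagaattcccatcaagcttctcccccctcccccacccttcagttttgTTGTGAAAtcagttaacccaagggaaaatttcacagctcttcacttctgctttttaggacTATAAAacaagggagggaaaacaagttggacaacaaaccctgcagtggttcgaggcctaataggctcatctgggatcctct
Il1rn start 1, chr2:24336610-24336909, plus strand: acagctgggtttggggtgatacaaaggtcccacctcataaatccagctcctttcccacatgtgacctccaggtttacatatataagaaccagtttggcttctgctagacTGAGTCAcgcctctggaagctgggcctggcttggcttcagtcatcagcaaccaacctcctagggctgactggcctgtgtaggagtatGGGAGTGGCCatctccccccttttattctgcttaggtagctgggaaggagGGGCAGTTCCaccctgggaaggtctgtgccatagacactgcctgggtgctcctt
Il1rn start 3, chr2:24345121-24345420, plus strand: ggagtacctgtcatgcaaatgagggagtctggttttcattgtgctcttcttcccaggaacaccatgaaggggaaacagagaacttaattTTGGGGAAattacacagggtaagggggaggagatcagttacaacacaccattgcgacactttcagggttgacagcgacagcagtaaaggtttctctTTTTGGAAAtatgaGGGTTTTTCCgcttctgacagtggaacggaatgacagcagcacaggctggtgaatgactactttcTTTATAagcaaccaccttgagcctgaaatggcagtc
Ccl6, chr11:83593038-83593337, minus strand: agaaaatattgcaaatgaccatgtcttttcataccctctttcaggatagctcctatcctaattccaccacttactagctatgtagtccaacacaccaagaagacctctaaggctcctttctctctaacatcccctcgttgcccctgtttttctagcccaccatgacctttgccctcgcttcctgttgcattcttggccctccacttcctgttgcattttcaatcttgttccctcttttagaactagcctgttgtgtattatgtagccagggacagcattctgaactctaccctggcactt
With the start base counted as 0, the Il1b window held a TATA match at -31 to -26 and a C/EBP match at -91 to -84. The window of Il1rn start 1 held NF-kappaB matches at -54 to -45 and at -4 to 5 and an AP-1 match at -141 to -135. That of start 3 held 1 NF-kappaB match (-51 to -42), 3 C/EBP matches (2 of them overlapping) and a TATA match on the other strand after the start. The Ccl6 window held none of the 5 motifs. Among the 32544 distinct promoter windows of the table, 51.0% held the NF-kappaB letters, 40.7% those of C/EBP, 28.1% PU.1, 13.6% TATA and 7.79% AP-1. No motif was thus present in all 3 genes, and most of these letters are common in promoters.

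Il1b was above control on days 1 and 2 and far below it on day 5. Probe 1 had a value on both arrays of all 20 mice, and the arrays of a mouse differed by a median of 0.05 and at most 0.44. In control mice 1 to 5 the log2 ratio to the pool was 0.34, 0.54, 0.11, 0.26 and -0.20. On day 1 mice 1 to 5 stood at 1.18, 0.72, 1.43, 1.38 and 1.08, all above the highest control mouse. On day 2 they stood at 0.99, 1.81, 2.61, 1.25 and 1.63, again all above the controls and partly within the day 1 range. On day 5 they stood at -1.22, -2.33, -2.25, -2.98 and -1.22, all below the lowest control mouse. The order of the group means was therefore day 2, day 1, control and day 5, and only the neighbours day 2 and day 1 overlapped.

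**Figure D1:**
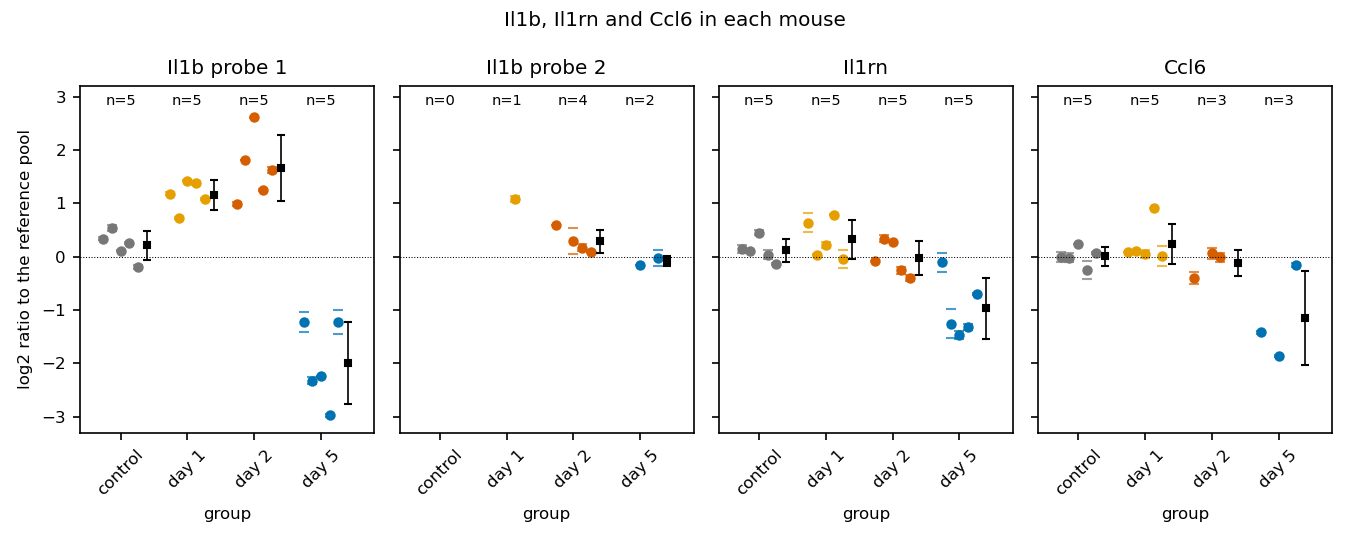
Log2 ratio to the reference pool (vertical axis) of the 4 probes in control, day 1, day 2 and day 5 mice. Dots are mice, dashes their single arrays, black squares group means with SD, and n is the number of mice with a value. Probe 1 of Il1b is the probe with the widest range, from a mean of 1.66 on day 2 to -2.0 on day 5.

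The group means (± SD, n = 5) of Il1b probe 1 were 0.21 ± 0.28 in control mice, 1.16 ± 0.28 in day 1 mice, 1.66 ± 0.62 in day 2 mice and -2.0 ± 0.76 in day 5 mice. Relative to control the differences (± SE of the limma fit over all probes) were 0.95 ± 0.28 on day 1 (1.93-fold higher), 1.45 ± 0.28 on day 2 (2.73-fold higher) and -2.21 ± 0.28 on day 5 (4.63-fold lower). These 3 comparisons share their control mice. The SE of this probe is the same in every comparison, because the fit uses 1 spread for all 4 groups. The SD between mice was larger on days 2 and 5 than in control and day 1 mice. Among 5392 probes with at least 3 measured mice in every group, the Il1b difference ranked 31 from the top on day 1, 2 from the top on day 2 and 3 from the bottom on day 5. Between days, Il1b was 0.50 ± 0.28 higher on day 2 than on day 1, and on day 5 it was lower by 12.6-fold than on day 2 (-3.66 ± 0.28) and by 8.92-fold than on day 1 (-3.16 ± 0.28). In both of the comparisons of day 5 with an earlier day it was the lowest of all 5392 differences.

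Probe 2 of Il1b had values in 7 mice and in no control mouse, so it gives no difference from control. It stood at 1.08 in day 1 mouse 4, at 0.58, 0.29, 0.17 and 0.086 in day 2 mice 1, 3, 4 and 5, and at -0.15 and -0.022 in day 5 mice 3 and 5. The day 5 mice were again the lowest, but the values spread far less than those of probe 1, which in these same mice ran from -2.25 to 2.61. By probe 2, day 1 mouse 4 stood above all 4 day 2 mice, so the order of day 2 above day 1 rests on probe 1 alone. The probes did not rank the day 2 mice alike. Mouse 1 was the highest of 4 by probe 2 and the lowest of 5 by probe 1. Averaging the 2 probes into 1 value per gene gave a day 2 difference of 0.91 in place of 1.45. Probe 2 read lower than probe 1 in each of the 4 day 2 mice where it had a value, while control mice entered by probe 1 alone both times.

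Il1rn, the antagonist, was lower on day 5 and near control on days 1 and 2. Control mice 1 to 5 stood at 0.14, 0.11, 0.45, 0.034 and -0.14 against the pool, and day 1 mice at 0.64, 0.038, 0.22, 0.79 and -0.040. Day 1 mice 1 and 4 were above every control mouse and the other 3 within the control range. Day 2 mice stood at -0.088, 0.34, 0.27, -0.26 and -0.40, and day 5 mice at -0.11, -1.26, -1.47, -1.32 and -0.70. Of the day 5 mice only mouse 1 lay within the control range. The differences from control were 0.21 ± 0.21 on day 1, -0.15 ± 0.21 on day 2 and -1.09 ± 0.21 on day 5 (2.13-fold lower, rank 31 from the bottom of 5392). Without 1 mouse, the day 1 difference went as low as 0.093 (without day 1 mouse 4), and the day 2 difference ran from -0.24 (without day 2 mouse 2) to -0.053 (without day 2 mouse 5). Day 5 was lower than day 2 by 0.94 ± 0.21 and lower than day 1 by 1.30 ± 0.21 on the log2 scale, and of these only the day 5 and day 1 mice did not overlap.

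Ccl6 was measured in 5 control, 5 day 1, 3 day 2 and 3 day 5 mice. Control mice 1 to 5 stood at -0.012, -0.024, 0.23, -0.25 and 0.066, and day 1 mice at 0.094, 0.11, 0.049, 0.91 and 0.013. Day 1 mouse 4 thus stood apart, and its value came from 1 array. Day 2 mice 1, 3 and 4 stood at -0.40, 0.059 and -0.017, and day 5 mice 1, 3 and 5 at -1.42, -1.86 and -0.16. Day 5 mice 1 and 3 were far below every control mouse, while mouse 5 was within the control range. The differences from control were 0.23 ± 0.23 on day 1, -0.12 ± 0.27 on day 2 and -1.15 ± 0.27 on day 5 (2.22-fold lower, rank 27 from the bottom). The day 1 difference was 0.064 without mouse 4, and the day 5 difference was -1.64 without mouse 5 and -0.79 without mouse 3.

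By the rule of an adjusted p under 0.05 in limma, 1 of the 3 members' probes tested was called higher on day 1, where 10.9% of all probes were, and 1 on day 2, where 9.7% were. Both times it was Il1b. On day 5 all 3 were called lower, where 1.69% of all probes were. These calls of the fit over all probes describe genes that were picked on the same values and are no test of them. Il1b was also the 1 member of 3 that did not overlap with control, where 7.01% of all probes lay wholly higher on day 1, 9.68% wholly higher on day 2 and 3.25% wholly lower on day 5. Between days 2 and 1, 0 of 3 were called in limma, with 2.08% of all probes called. On day 5 against day 2 all 3 were called lower (10.6% of all probes) and Il1b did not overlap (9.29% wholly lower). On day 5 against day 1 all 3 were called lower (13.3%) and all 3 did not overlap (8.66%).

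The differences of Il1b and Il1rn from control were unequal in size. The difference of their log2 ratios in the same mouse (Il1b probe 1 minus Il1rn) was 0.19, 0.44, -0.34, 0.23 and -0.059 in control mice 1 to 5 and 0.54, 0.69, 1.21, 0.59 and 1.12 in day 1 mice. It was 1.08, 1.48, 2.34, 1.50 and 2.03 in day 2 mice and -1.12, -1.07, -0.77, -1.66 and -0.53 in day 5 mice. The day 1 and day 2 mice lay wholly above the control mice and the day 5 mice wholly below. The means were 0.091 ± 0.30 in control mice, 0.83 ± 0.31 in day 1 mice, 1.69 ± 0.50 in day 2 mice and -1.03 ± 0.43 in day 5 mice (SD, n = 5 each). This compares changes against the pool and says nothing of which transcript was the more abundant. Against Ccl6 the same difference averaged 0.21 ± 0.38 in control (n = 5), 0.92 ± 0.37 on day 1 (n = 5), 1.74 ± 0.71 on day 2 (n = 3) and -0.42 ± 0.63 on day 5 (n = 3).

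**Figure D2:**
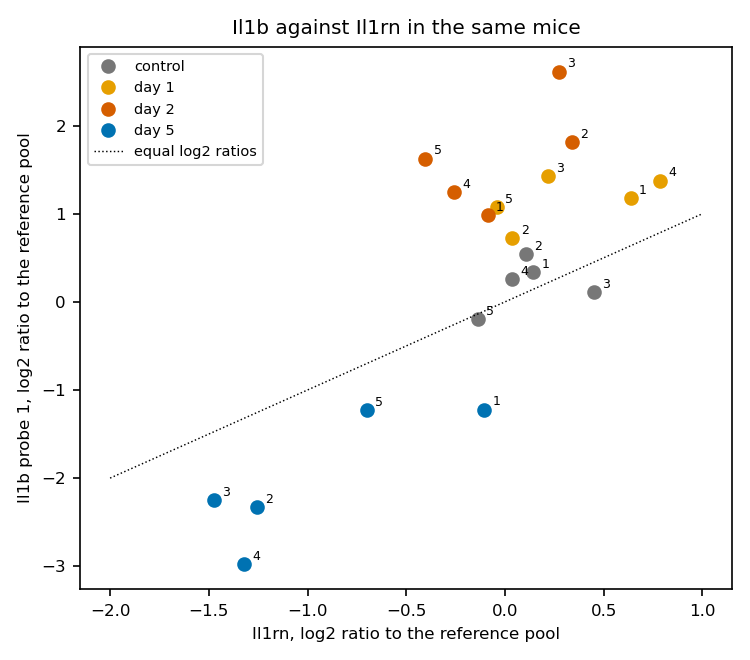
Il1b probe 1 (vertical axis) against Il1rn (horizontal axis), both as log2 ratio to the reference pool, with 1 dot per mouse, numbered within its group. Day 1 and day 2 mice lie above the dotted line of equal ratios and day 5 mice below it, while control mice lie on both sides.

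Mice that were high for one gene within their group tended to be high for another. As a description, Il1b probe 1 and Il1rn correlated at Pearson r = 0.80 (Spearman rho = 0.61) over 20 mice, and at r = 0.68 (rho = 0.62) once each group's mean was taken away. For Il1b and Ccl6 over 16 mice r was 0.72 (rho = 0.48), and 0.44 (rho = 0.35) within groups. For Il1rn and Ccl6 over the same 16 mice r was 0.77 (rho = 0.72), and 0.44 (rho = 0.40) within groups. The values of a mouse share its arrays and RNA. Day 1 mouse 4 was the highest of its group for Il1rn and Ccl6 and close to the highest for Il1b. Day 5 mouse 5 was the highest for Ccl6, and it and mouse 1 were the 2 highest for Il1b and Il1rn.

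Few of the other interleukin 1 pathway genes that could be tested passed the test. Of a list of 51 other ligands, receptors, processing and signalling genes, 36 had a named probe and 15 were measured in at least 3 mice of every group. The other ligands and receptors were mostly not among them. Il1a, the second agonist of the receptor, had values in 1 control, 2 day 1, 2 day 2 and 1 day 5 mice, and Il1r1 in 4, 4, 3 and 2 in the same order of groups. The decoy receptor Il1r2 and the cytokine Il18 had no value in any mouse. On day 1, 0 of the 15 passed in limma (1 higher and 1 lower at an unadjusted p under 0.05), where 19.4% of all probes did. The smallest p was that of Ikbkg, a regulatory subunit of the kinase that frees NF-kappaB, at 0.31 ± 0.12 (adjusted p = 0.0638), which passed with the replicate number as a block. On day 2, 1 of 15 passed, lower, with 19.4% of all probes called, and on day 5 again 1, lower, with 2.56% called. The medians of the 15 differences were -0.024, -0.10 and -0.059 on days 1, 2 and 5, against -0.016, -0.022 and 0.0084 over all probes tested.

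The gene that passed on both days was Il18bp, which encodes a secreted protein that binds and blocks the cytokine of the Il18 gene. It averaged -0.058 ± 0.29 in day 2 mice, -0.31 ± 0.19 in day 5 mice and 0.44 ± 0.30 in control mice (SD, n = 5). It fell by 0.50 ± 0.14 on day 2 (adjusted p = 0.0174) and by 0.75 ± 0.14 on day 5 (adjusted p = 0.0029) on the log2 scale, in 5 of 5 mice each time. Day 5 mice, at -0.59 to -0.14, lay wholly below the control mice, at 0.080 to 0.67. The day 2 call was lost without control mouse 1 (-0.44), control mouse 3 (-0.44) or day 2 mouse 1 (-0.45) and with the second array of each mouse alone (-0.42), and the day 5 call was kept without any single mouse (-0.84 to -0.68). For pathway genes that process or pass on the signal the limma tests found no call. Nearest to the threshold on day 2 were Ikbkb (-0.32 ± 0.11, adjusted p = 0.0503) and Ikbkg (0.31 ± 0.12, adjusted p = 0.0685). On day 5 Myd88 gave 0.13 ± 0.15 (adjusted p = 0.895), the inflammasome adaptor Pycard 0.23 ± 0.17 (adjusted p = 0.753), Casp1 0.063 ± 0.22 with 3 mice in each group (adjusted p = 0.973) and the NF-kappaB inhibitor Nfkbia -0.13 ± 0.20 (adjusted p = 0.925). These day 2 and day 5 values were chosen after they had been seen, and a p above the threshold does not show that a gene was unchanged.

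**Figure D3:**
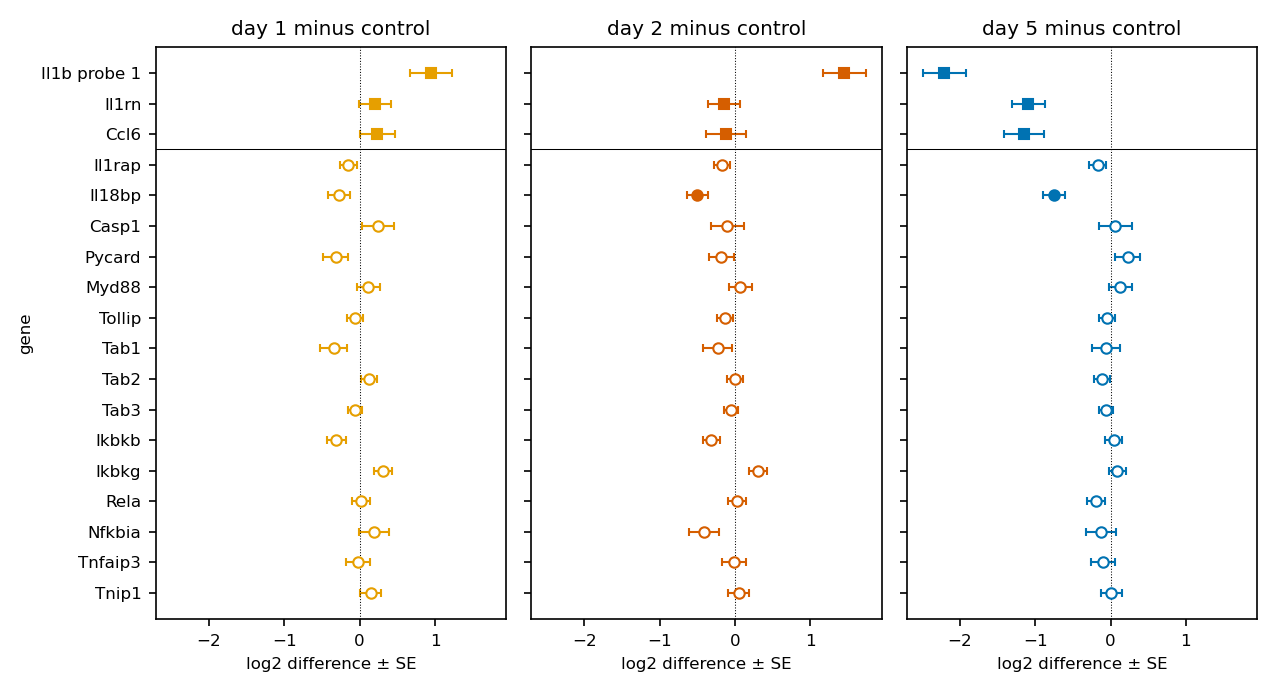
Differences from control (log2, horizontal axis, with SE) on days 1, 2 and 5 for the 3 members (squares, given without a p-value) and for the 15 other genes of the interleukin 1 pathway that could be tested (circles, filled where the adjusted p was under 0.05). Il18bp is the filled circle on days 2 and 5, and Il1b lies farther from 0 than any of the 15 on each day.

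Ccl6 was set beside 58 other chemokines and chemokine receptors, of which 51 had a named probe and 19 could be tested. On day 1, 3 of 19 rose and 0 fell, with 10.9% of all probes called higher. Ccr9, a receptor of lymphoid and dendritic precursors, rose by 0.74 ± 0.13 (adjusted p = 0.000737) and Ccr6 by 0.48 ± 0.12 (adjusted p = 0.00818), each in 5 of 5 mice. The platelet chemokine Ppbp rose by 0.60 ± 0.21 (adjusted p = 0.0442), a call lost in 8 of the 20 fits without 1 mouse (0.46 to 0.68 over all 20), namely those without control mice 1, 2, 3 or 5, day 1 mice 3, 4 or 5, or day 5 mouse 2. It was also lost with the second array alone (0.52), with only values seen on both arrays (0.54) and with probes of at least 2 mice in every group entered. On day 2, 4 of 19 rose, with 9.7% of all probes called higher, and 1 fell. These were Ccr9 (0.77 ± 0.13, adjusted p = 0.000308), Ppbp (0.90 ± 0.21, adjusted p = 0.00427), the monocyte attractant Ccl2 (0.66 ± 0.18, adjusted p = 0.0143) and Cxcl12, which retains progenitors in marrow (0.99 ± 0.31, adjusted p = 0.0262, with 4 of 5 mice on that side of the controls' mean). The Cxcl12 call was lost without control mouse 1 (0.90) or day 2 mouse 1 (0.76), 2 (0.78) or 3 (0.96). The gene that fell was Ccl25 (-0.34 ± 0.11, adjusted p = 0.0361), named after its values were seen.

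On day 5, 0 of the 19 chemokine genes passed in limma, with 2.56% of all probes called (1 higher and 3 lower at an unadjusted p under 0.05). The smallest p was that of the interferon-induced Cxcl10, at -0.047 ± 0.12 in 5 day 5 mice and 0.37 ± 0.12 in 4 control mice (difference -0.41 ± 0.12, adjusted p = 0.0767). It passed after quantile normalization (-0.61) and with only day 5 and control mice in the fit. Ccl9, a close relative of Ccl6, gave 0.59 on day 5 and did not pass, and is named after its value was seen. Ccr1, the receptor that binds Ccl6, had no value in any mouse. The medians of the 19 differences were 0.088, -0.055 and -0.039 on days 1, 2 and 5.

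Of 32 other inflammatory genes 10 could be tested. On day 1, 1 rose and 0 fell, with 10.9% of all probes called higher, namely Clec4e, a receptor of activated myeloid cells (0.53 ± 0.18, adjusted p = 0.0415, in 4 of 5 mice). That call was lost in 8 of the 20 fits without 1 mouse (0.41 to 0.72), namely without control mice 1, 2, 4 or 5 or day 1 mice 1, 3, 4 or 5, and with only day 1 and control mice in the fit. On day 2, 2 rose and 0 fell, with 9.7% of all probes called higher. They were Nos2, the inducible nitric oxide synthase (0.49 ± 0.13, adjusted p = 0.0101), and Zfp36, whose product destabilises cytokine messages (0.44 ± 0.15, adjusted p = 0.0403). The Zfp36 call was lost without control mouse 3 or 4 or day 2 mouse 1, 3 or 4 (0.33 to 0.56 over the 20 fits), with the first array alone (0.33), after quantile normalization (0.41) and with only day 2 and control mice in the fit. On day 5, 0 of 10 passed in limma, with 2.56% of all probes called (0 higher and 1 lower at an unadjusted p under 0.05). The smallest p was that of Il12a (-0.22 ± 0.10, adjusted p = 0.449).

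In whole marrow, fewer cells of a type and less RNA per cell cannot be told apart, and the levels of Il1b stand here beside markers of cells that could hold its message. Of 21 neutrophil genes, from granule proteins to surface receptors, 17 had a named probe and 9 could be tested. The list does not separate stages of maturation. On day 1, 1 rose (Csf3r, 0.41 ± 0.14, adjusted p = 0.0412, lost in 7 of the 20 fits without 1 mouse, after quantile normalization at 0.38 and with only day 1 and control mice in the fit) and 0 fell, on day 2, 0 rose and 6 fell, and on day 5, 0 rose and 2 fell. Over all probes 10.9% rose and 8.53% fell on day 1, 9.7% rose and 9.72% fell on day 2, and 0.872% rose and 1.69% fell on day 5, which is the background for each marker count. The mean log2 ratio of the 6 genes measured in all mice (Ltf, Ngp, Cd177, Csf3r, Fpr2 and Hp) ran from -0.071 to 0.22 in control, -0.39 to 0.34 on day 1, -1.21 to -0.81 on day 2 and -0.13 to 0.30 on day 5. On day 2, Il1b was thus high in mice where 6 of the 9 neutrophil genes were called lower, namely S100a9, Ltf, Ngp, Cd177, Fpr2 and Hp. The other 3 did not pass in limma. Of these, Mmp9 was below control (-0.625 ± 0.24, adjusted p = 0.0732). Csf3r (0.28 ± 0.14, adjusted p = 0.17) and Trem1 (0.11 ± 0.13, adjusted p = 0.615) had values above control. On day 5, Il1b was low in mice whose neutrophil mean lay near that of control, but the genes in that mean did not move alike. Ltf (0.17), Ngp (0.084), Cd177 (0.074), Fpr2 (0.056) and Hp (0.087) were slightly above control and did not pass in limma. The 2 neutrophil genes called lower that day were Csf3r, the receptor of the growth factor G-CSF, and the gelatinase Mmp9, which is not in the mean. Also outside the mean, Trem1 (-0.21) and S100a9 (0.37) did not pass.

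Csf3r averaged -0.56 ± 0.13 in day 5 mice and 0.0063 ± 0.20 in control mice (SD, n = 5), a fall by 0.57 ± 0.14 on the log2 scale (adjusted p = 0.0234). The call was lost without control mouse 4 or 5 or day 5 mouse 2 or 3 (-0.61 to -0.48 over the 20 fits). Mmp9 averaged -0.79 ± 0.73 in 4 day 5 mice and 0.19 ± 0.24 in 5 control mice (difference -0.98 ± 0.26, adjusted p = 0.038), with 3 of the 4 day 5 mice below the control mean. That call was lost in 8 of the 20 fits (-1.32 to -0.75), without control mice 1, 3, 4 or 5, day 1 mouse 3, or day 5 mice 1, 2 or 3, and with the replicate number as a block (-0.93), with the second array alone (-0.78) or with only day 5 and control mice in the fit (-0.98).

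Other markers moved too. Of 12 macrophage genes 5 could be tested. On day 1, 2 rose (10.9% of all probes did), on day 2 all 5 rose (9.7%) and on day 5, 0 passed in limma, where 2.56% of all probes did (0 higher and 4 lower at an unadjusted p under 0.05). Their mean over Adgre1, C1qb, Siglec1 and Slc40a1 ran from -0.44 to 0.20 in control, 0.30 to 0.80 on day 1, 0.80 to 1.27 on day 2 and -0.57 to -0.16 on day 5. That is the same order of group means as for Il1b probe 1, whose day 2 and day 1 mice overlapped. For Il1b the order of day 2 above day 1 rests on probe 1 alone. Of 13 monocyte genes 4 could be tested, of which 3 fell on day 1 (8.53% of all probes did), 1 fell on day 2 (9.72%) and 2 rose on day 5 (0.872%). The mean of F13a1 and Ms4a6b ran from -0.039 to 0.40 in control, -0.85 to -0.43 on day 1, -0.22 to 0.035 on day 2 and 0.55 to 0.82 on day 5. These 2 monocyte markers were highest in the mice of day 5, where Il1b, Il1rn and Ccl6 were lowest. Cybb of the same list, the gene that fell on day 2, averaged 0.37 in control mice, -0.74 in day 2 mice and 0.27 in day 5 mice.

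Among 10 mature B and plasma cell genes only Ms4a1 (CD20) and Cd22 could be tested, and both fell on day 5 (Ms4a1 by 1.79 ± 0.40, adjusted p = 0.0114, and Cd22 by 0.99 ± 0.13, adjusted p = 4.81e-05, on the log2 scale). The Ms4a1 call was lost with only day 5 and control mice in the fit. Cd22 rose on day 1 (0.52 ± 0.13, adjusted p = 0.00922) and on day 2 (0.38 ± 0.13, adjusted p = 0.0465, lost in 10 of the 20 fits without 1 mouse, with the second array alone and with probes of at least 2 mice in every group entered). Their mean was between -0.31 and -0.048 in control, 0.26 and 0.86 on day 1, -0.27 and 0.054 on day 2, and -2.21 and -0.92 on day 5. Of the granulocyte precursor genes 4 of 10 were tested, with 2 lower on day 1 (8.53% of all probes), 0 passing on day 2 (0 higher and 0 lower at an unadjusted p under 0.05) and 1 higher on day 5 (0.872%). Of the eosinophil, basophil and mast cell genes 3 of 13 were tested, with 1 lower on day 1 (8.53%), 1 lower on day 2 (9.72%) and 0 passing on day 5 (0 higher and 2 lower unadjusted). Of the erythroid genes 6 of 10 were tested, with 1 higher on day 1 (10.9%), 2 lower on day 2 (9.72%) and 0 passing on day 5 (0 higher and 1 lower unadjusted), and of the 10 T and NK cell genes 0 could be. The part of these cells in the levels of Il1b, Il1rn and Ccl6 was not tested.

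**Figure D4:**
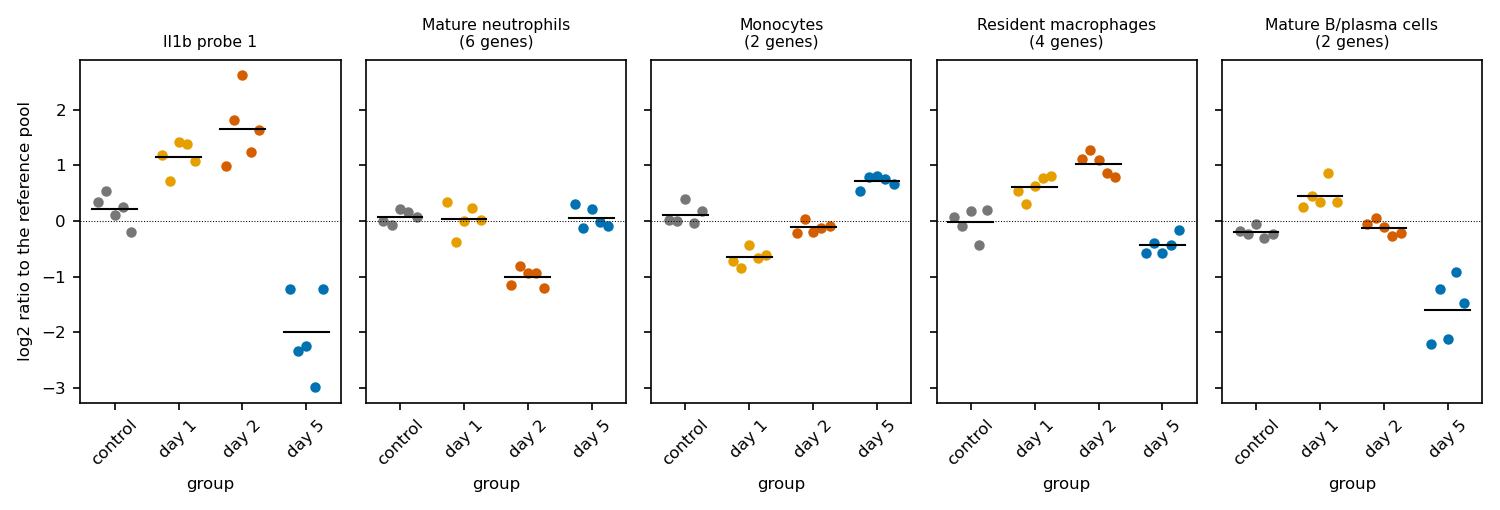
Log2 ratio to the reference pool (vertical axis) in each mouse for Il1b probe 1 and for the mean of the marker genes measured in all mice, by group. Horizontal lines are group means. By group mean, macrophage markers, like Il1b probe 1, were highest on day 2 and lowest on day 5, and monocyte markers were highest on day 5. The mean of the 6 neutrophil markers was lowest on day 2, while Csf3r, 1 of the 6, was lowest on day 5.

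Across the mice, the genes that ran most like the members were found by Pearson r over the mice with both values, among 3920 genes for Il1b and Il1rn and 3122 for Ccl6. The likeness is a description over mice that share the group pattern. For Il1b probe 1 (20 mice) the 5 highest were the interferon-induced Oasl2 (r = 0.94), the MHC class II gene H2-Aa (0.91), the interferon-induced Rtp4 (0.91), Cd22 (0.90) and Gbp8 (0.89). Oasl2 averaged 0.22 in control mice, 0.80 in day 1 mice, 0.64 in day 2 mice and -0.46 in day 5 mice. After each group's mean was removed r was 0.74 for Oasl2, 0.68 for H2-Aa and 0.76 for Rtp4, but 0.17 for Cd22. The lowest r was that of Tnfsf13, which encodes the B cell survival factor APRIL, at -0.94, with means of 0.26 in control mice, -0.31 in day 1 mice, -0.61 in day 2 mice and 1.38 in day 5 mice.

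For Il1rn the highest were Ankrd33b (r = 0.89), Cyp4f18, which degrades leukotriene B4 in neutrophils (0.89), Tulp4 (0.87), the p53 target Trp53inp1 (0.86 over 16 mice) and Rtp4 (0.86). Cyp4f18 averaged 0.11 in control mice, 0.52 in day 1 mice, 0.0098 in day 2 mice and -2.21 in day 5 mice. The lowest was the transcription factor Tfec (-0.85). For Ccl6 the highest were Ms4a1 (0.93), Cyp4f18 (0.89), Mmp9 (0.87), P2ry14 (0.87 over 13 mice) and Trp53inp1 (0.86 over 13 mice), and the lowest was the urate transporter Slc2a9 (-0.82). With group means removed, r with Ccl6 was 0.90 for Ms4a1 and 0.92 for Mmp9 over 16 mice, for genes chosen by their r in these mice. In both, as in Ccl6, day 1 mouse 4 was the highest of its group, and day 5 mouse 5 the highest of the 3 day 5 mice with a Ccl6 value.

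**Figure D5:**
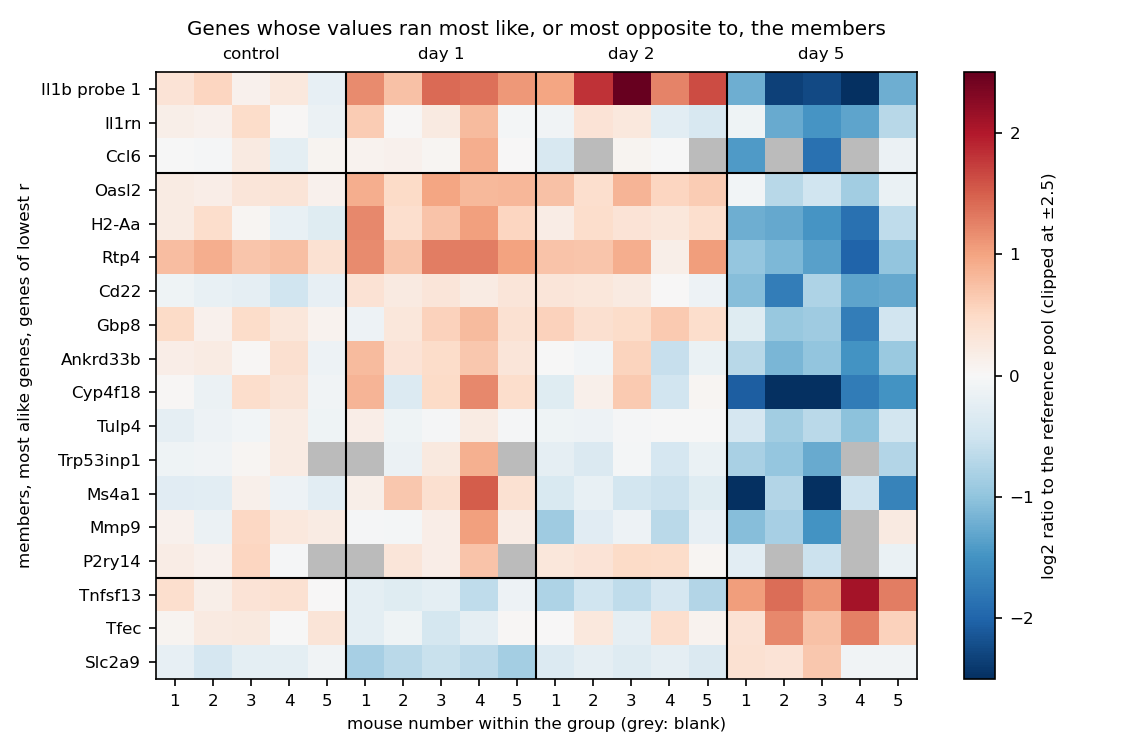
Log2 ratio to the reference pool (colour) of the members, the genes most alike to them and the genes of lowest r, by mouse (columns, 5 per group), with blank values in grey. In day 5 mice the rows of the members and of the genes most alike to them are below 0 (blue) wherever they have a value, except Mmp9 in mouse 5 (0.23). The genes of lowest r are above 0 (red) there, except Slc2a9 in mice 4 and 5.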

How the data were processed

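For each array the authors deposited a single value per probe, used here as the log2 ratio of mouse (Cy5) over pool (Cy3), per the labels' dyes. Amplified RNA was labelled (Ambion MessageAmp chemistry), per the labels' protocols. Scanner, background correction, normalization, log base and the rule for blanks (40.7% to 69.7% of probes per array) are not stated in any source at hand. Array medians lay within 0.015 of 0, and of 780 pairs of arrays the lowest correlation was -0.175. Names came from the platform annotation and current RefSeq symbols (10032 probes with 1 symbol, 10028 of them matched, 170 with several, 3241 with no entry).

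The 2 arrays of a mouse were averaged, and limma 3.58.1 (R 4.3.3) fitted each probe apart with a mean for each of the 4 groups (prior degrees of freedom 7.85). Probes with 3 or more measured mice in each group entered, with Benjamini-Hochberg adjustment over 5392 probes and calls at an adjusted p under 0.05. Blank values were left out, not filled in. A listed gene with several probes was represented by the probe measured in most mice. The steps were tested on simulated data. The members and lists were chosen with earlier results of these data known. Named were the members, up to 4 passing genes per list and day (or the one of smallest p) for the lists of the pathway, chemokines and inflammatory genes, and the 5 most alike genes and the least alike one per member. Of the marker lists counts are given, with Csf3r, Mmp9, Trem1, Cybb, Ms4a1 and Cd22 by value. Trem1 and the day 2 values of Csf3r and Mmp9 were picked after they had been seen. The day 5 values of the other tested neutrophil genes were likewise added after they had been seen. Both arrays of a mouse are technical repeats per the labels.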

Additional observations from a re-analysis of the deposited data

Results flagged for a closer look

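Of 49 groups of mice examined for a single mouse far from the others, 2 had one, and chance alone gives about 1 in 20. Ccl6 in day 1 mouse 4 had a log2 ratio of 0.91, and the next mouse 0.11. Ikbkg in day 5 mouse 5 had 0.16, and the next -0.12.

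Several genes had an effect that differed between days. For Il1b probe 1 every day 1 and day 2 mouse was above the control mean and every day 5 mouse below it (day 5 minus day 1 -3.16, day 5 minus day 2 -3.66). The same held for Ccl6 between 3 day 5 mice and 5 day 1 mice (-1.38), but less clearly. Its day 1 mouse 5 stood at 0.013 against a control mean of 0.0026, and the day 1 difference was 0.064 without mouse 4. These differences between days were not tested in other mice than those the genes were picked on. The calls of the fit over all probes are no test of them.

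For genes of the pathway and chemokine lists the difference between days was tested in limma. On day 5 against day 2, Ccl2 was lower by -0.81 (adjusted p = 0.00267), Ccr9 by -0.87 (adjusted p = 4.2e-05), Cxcl10 by -0.36 (adjusted p = 0.0288), Cxcl12 by -1.33 (adjusted p = 0.00294) and Ppbp by -1.40 (adjusted p = 4.33e-05). On day 5 against day 1, Ccr6 was lower by -0.45 (adjusted p = 0.00704), Ccr9 by -0.84 (adjusted p = 5.44e-05), Cxcl12 by -1.12 (adjusted p = 0.00895), Il18bp by -0.47 (adjusted p = 0.0178) and Ppbp by -1.10 (adjusted p = 0.000448).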

How the results depend on the processing

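Of the differences from control of Il1b probe 1, Il1rn and Ccl6, 1 moved by more than the spread between mice: the day 2 difference of Il1b was 0.91 when its 2 probes were averaged. Without 1 mouse, Il1b ranged from 0.85 to 1.06 on day 1, 1.21 to 1.62 on day 2 and -2.41 to -1.97 on day 5, Il1rn from 0.093 to 0.30 on day 1, -0.24 to -0.053 on day 2 and -1.31 to -0.97 on day 5, and Ccl6 on day 5 from -1.64 to -0.79.

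The number of pathway genes called on day 1, 0 of 15, was 1 after quantile normalization and 2, among them Ikbkg (0.31), with the replicate block. On day 2 it was 1 of 15, and 0 with the second array alone, 2 with only values seen on both arrays, 2 with shared values left out, 2 with the replicate block and 3 with only day 2 and control in the fit. The number of chemokine genes called on day 5, 0 of 19, was 1 after quantile normalization and 1 with only day 5 and control in the fit. Without 1 mouse, the pathway count ran from 0 to 1 on day 1 and 0 to 2 on day 2, the chemokine count from 3 to 8 on day 2 and 0 to 1 on day 5, and the count of all probes called from 629 to 1359 on day 1 (629 without day 1 mouse 3 and 658 without day 1 mouse 2) and from 608 to 1154 on day 2 (608 without day 2 mouse 1). Those fits have fewer mice, and the cause of the other changes was not tested.

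With the replicate block 1028, 998 and 127 probes were called on days 1, 2 and 5, against 1046, 1047 and 138 without it. Each number occurs once per group, so the block cannot move the difference of a probe measured in all 20 mice, such as Il1b probe 1 or Il1rn. The differences of Ccl6, which has blanks, did not move by more than the spread between mice. Over 3009 probes, deviations from group means correlated at 0.029 on average between same-numbered mice of different groups (-0.39 to 0.32). Between mice of different groups and other numbers the average was -0.0071. Of the 20 mice, 7 correlated best with a mouse of their own number. Whether mice of the same number were handled together was not tested. Shared values are a value that at least 8 probes of an array had to within 0.001, found on 33 arrays. No member was at it. Of the single-gene results under all settings, 1390 kept their side of the threshold, 89 lost the call and 6 gained one. Blanks limit Ccl6 and the second Il1b probe most, and signal over background is not known here.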
